A study of Homo sapiens with 18 samples.

Results

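The liver-enriched transcription factors of the HNF4, FOXA, ONECUT and PROX families were examined in liver cancer cells that carry the DNAJB1-PRKACA fusion. The group was defined by gene symbol as HNF4A, HNF4G, FOXA1, FOXA2, FOXA3, ONECUT1, ONECUT2 and PROX1, and all 8 were found among the 14888 genes listed for clone H33 and the 14896 listed for clone H12. Poly-A RNA had been sequenced from 18 libraries, 6 each of H33, H12 and HepG2. H33 and H12 are labelled with the genotype DNAJB1-PRKACA and are described as clones of HepG2 that express this fusion of a heat shock co-chaperone with the catalytic subunit of protein kinase A. HepG2 is labelled WT and is a human hepatoblastoma line, grown in the same RPMI1640 medium. Each fusion line is 1 clone, so a difference from HepG2 covers every difference between that clone and the parental stock. The design compares each clone with the parental line.

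These factors form a network that makes and maintains the hepatocyte. HNF4A is an orphan nuclear receptor that binds DNA as a homodimer and activates genes for apolipoproteins, clotting factors and drug metabolism; HNF4G is its close relative. FOXA1, FOXA2 and FOXA3 are forkhead proteins that can bind their sites in closed chromatin and open liver enhancers in the endoderm. ONECUT1 (HNF6) and ONECUT2 carry a cut domain and a homeodomain and act in liver and bile duct development, and PROX1 is a prospero homeodomain protein needed for hepatoblasts to migrate in the mouse embryo and is a corepressor of HNF4A and NR5A2. In liver these genes regulate one another.

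Promoter sequences from RefSeq (GRCh38.p14) were available for 5 of the 8 genes, each holding 250 bases before and 50 after an annotated transcription start, read 5′ to 3′ on the strand of the gene. The 4 windows below are shown because they hold letters of sites that members of this network, or factors under protein kinase A, are known to bind. HNF4A has 2 such starts, 45540 bases apart, an upstream one used in fetal liver and pancreas and a downstream one used in adult liver, and values per gene do not separate their transcripts. Capitals mark ATTGAT (ONECUT core), TGTTTNC (forkhead) and TGACG (cAMP response element core) on either strand; no 2 matches share a base.
HNF4A upstream, chr20:44355449-44355748, plus strand: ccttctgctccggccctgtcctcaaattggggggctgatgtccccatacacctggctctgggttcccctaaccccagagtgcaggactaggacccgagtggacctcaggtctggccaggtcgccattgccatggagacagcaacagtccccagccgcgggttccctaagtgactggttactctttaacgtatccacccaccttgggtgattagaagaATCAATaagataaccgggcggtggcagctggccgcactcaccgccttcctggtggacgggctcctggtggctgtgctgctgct
HNF4A downstream, chr20:44400989-44401288, plus strand: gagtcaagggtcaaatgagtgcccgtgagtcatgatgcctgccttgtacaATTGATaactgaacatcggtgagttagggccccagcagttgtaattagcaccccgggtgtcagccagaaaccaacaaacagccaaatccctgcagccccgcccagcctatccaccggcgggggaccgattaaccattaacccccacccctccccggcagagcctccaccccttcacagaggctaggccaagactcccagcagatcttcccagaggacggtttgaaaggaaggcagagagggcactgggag
FOXA1, chr14:37595200-37595499, minus strand: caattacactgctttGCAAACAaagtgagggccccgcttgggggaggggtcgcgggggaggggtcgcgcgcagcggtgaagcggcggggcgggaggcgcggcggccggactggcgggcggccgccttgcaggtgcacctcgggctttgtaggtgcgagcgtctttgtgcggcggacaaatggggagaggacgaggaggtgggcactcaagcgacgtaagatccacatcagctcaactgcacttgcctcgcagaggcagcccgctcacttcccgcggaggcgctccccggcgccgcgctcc
ONECUT2, chr18:57435124-57435423, plus strand: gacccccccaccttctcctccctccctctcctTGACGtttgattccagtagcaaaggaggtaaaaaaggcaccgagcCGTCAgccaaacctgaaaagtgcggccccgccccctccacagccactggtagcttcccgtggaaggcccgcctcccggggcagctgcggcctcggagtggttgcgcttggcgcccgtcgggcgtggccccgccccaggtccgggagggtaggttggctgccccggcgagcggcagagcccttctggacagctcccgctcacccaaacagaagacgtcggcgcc
The ONECUT core began 33 bases before the upstream HNF4A start and 200 before the downstream one. The forkhead letters of FOXA1 began 235 bases before its start, and the cAMP response cores of ONECUT2 218 and 173 bases before its own. Among all 35116 windows in the table, 6.26% held ATTGAT, 18.0% TGTTTNC and 24.6% TGACG. The windows of FOXA3 and ONECUT1 held none of these 3 motifs. CAAAGTCCA, an HNF4 site found in 0.384% of all windows, was in none of the 6 member windows. TATAAA, the TATA box, stood 30 bases before the FOXA3 start (11.5% of all windows). A match is a run of letters and was not tested for binding.

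Values per library were not used here, so depth and the spread between libraries are unknown. For each clone the authors' deposited table gives log2 fold changes against HepG2 with edgeR likelihood ratios; the standard error (SE) was implied from these 2, and can be too small for genes with almost no reads in a group. Group levels in CPM (read counts scaled to library size) were implied from the fold change and the mean level. Samples are labelled as biological replicates but no separate cultures are named, so p-values cover only the spread between these samples. PRKACA, the kinase part of the fusion, had log2 fold changes of 2.15 in H33 and 2.07 in H12 in the authors' deposited tables. All 12 hepatocyte markers of the fixed list were lower in both clones, with summed implied levels of 117 CPM in H33 and 1012 CPM in H12, against 63039 CPM in HepG2. Fewer cells of a type and less RNA per cell cannot be told apart in these bulk samples. Of 6 fibroblast markers 3 were measured (summed 1441 CPM in H33 and 1191 CPM in H12, against 10.3 CPM in HepG2, mostly COL1A2), of 5 endothelial markers 1 (0.385 and 0.312 CPM, against 1.20 CPM) and of 6 leukocyte markers 4 (183 and 188 CPM, against 3198 CPM). The leukocyte sum was mostly CD68 in the clones (178 CPM in H33 and 136 CPM in H12, against 64.4 CPM in HepG2) and mostly LYZ in HepG2 (3.75 CPM in H33 and 51.3 CPM in H12, against 3130 CPM in HepG2). CD68 stood at 1.47 and 1.07 in the authors' deposited tables. Of 6 cholangiocyte markers 4 were measured, 1 higher and 3 lower in each clone. PTPRC, CD3E, PECAM1 and VWF were not listed, and the part of other cell types in the results was not tested.

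All 8 factors were lower than in HepG2 in H33 and in H12, and 7 of them by at least 4 log2 units in each clone. Of all listed genes 89.6% were called in H33 and 86.0% in H12, with 45.3% and 44.3% lower and 44.2% and 41.8% higher, and the share lower by at least 4 log2 units was 8.85% and 8.82% (adjusted p under 0.05, the authors' edgeR likelihood ratio test). The median log2 fold change of the 8 factors was -8.55 in H33 and -5.68 in H12, against -0.02 and -0.03 for all genes. A floor of 0.1 CPM under all levels gave an H33 median of -8.24. ONECUT2 was the member that fell least.

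**Figure D1:**
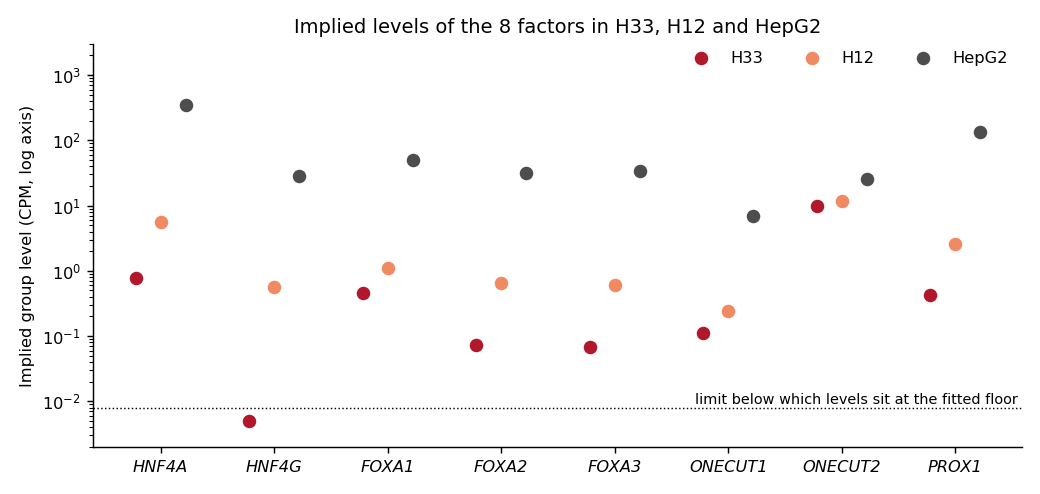
Implied group levels of the 8 factors (CPM, log axis) in H33, H12 and HepG2, 1 point per group without an error, with HepG2 as implied by the H33 table. HepG2 stands above both clones for every factor; HNF4A is at 0.785 CPM in H33 and 5.62 CPM in H12 against 348 CPM in HepG2, while ONECUT2 is at 9.76 and 11.7 CPM against 25.4 CPM. The dotted line is the limit under which a level was taken as at the fitted floor.

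HNF4A was the most abundant of these factors in HepG2. HNF4A (ENSG00000101076, GRCh38 chromosome 20 from 44355700 to 44434596, plus strand) had an implied level of 0.785 CPM in H33 and 5.62 CPM in H12, against 348 CPM in HepG2 in the H33 table and 351 CPM in the H12 table. This was 0.226% of the HepG2 level in H33 and 1.60% in H12. The authors' deposited tables give log2 fold changes of -8.79 (SE 0.06, adjusted p listed as 0) in H33 and -5.96 (SE 1.30, adjusted p = 6.81e-06 by edgeR) in H12. With Bonferroni adjustment in place of Benjamini-Hochberg, 7 of the 8 factors passed in H12, and HNF4A did not. Of all listed genes, 250 had a lower fold change than HNF4A in H33 and 351 in H12. HNF4G (ENSG00000164749, chromosome 8 from 75407914 to 75566843, plus strand) was at the fitted floor in H33, about 0.005 CPM, and at 0.568 CPM in H12, against 28.8 and 29.5 CPM in HepG2. Since a fitted fold at that floor is set by the prior count, none is given for H33, where the adjusted p was listed as 0. In H12 the authors' deposited table gives -5.70 (SE 0.65, adjusted p = 2.67e-18 by edgeR), or 1.93% of the HepG2 level. Both HNF4 receptors were thus at under 2% of their HepG2 level in each clone.

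The 3 FOXA genes had similar levels in HepG2, and in H33 FOXA1 stood above FOXA2 and FOXA3, which lay close together. FOXA1 (ENSG00000129514, chromosome 14 from 37589984 to 37596059, minus strand) had 0.459 CPM in H33 and 1.11 CPM in H12, against 50.3 and 51.4 CPM in HepG2. FOXA2 (ENSG00000125798, chromosome 20 from 22581005 to 22585455, minus strand) had 0.0740 CPM in H33 and 0.643 CPM in H12, against 31.9 and 32.7 CPM in HepG2. FOXA3 (ENSG00000170608, chromosome 19 from 45863989 to 45873797, plus strand) had 0.0679 CPM in H33 and 0.600 CPM in H12, against 34.1 and 34.9 CPM in HepG2. FOXA1 therefore kept 0.912% of its HepG2 level in H33, more than FOXA2 (0.232%) and FOXA3 (0.199%). For H33 the authors' deposited table gives -6.78 for FOXA1 (SE 0.09), -8.75 for FOXA2 (SE 0.14) and -8.97 for FOXA3 (SE 0.14), each with an adjusted p listed as 0. Setting levels under 0.1 CPM to 0.1 CPM gave -8.32 for FOXA2 and -8.41 for FOXA3 and left FOXA1 as it was. In the authors' deposited table for H12 they stood at -5.54 (SE 0.66), -5.67 (SE 0.64) and -5.86 (SE 0.64), within 1 SE of each other. These are 2.15%, 1.97% and 1.72% of the HepG2 level in H12, and a difference between FOXA genes was not tested.

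The 2 ONECUT genes parted. ONECUT1 (ENSG00000169856, chromosome 15 from 52756989 to 52791078, minus strand) had 0.112 CPM in H33 and 0.239 CPM in H12, against 6.87 and 6.99 CPM in HepG2. It was the least abundant of the 8 in HepG2 by CPM. The authors' deposited tables give -5.94 (SE 0.21, adjusted p = 1.03e-176) in H33 and -4.87 (SE 0.45, adjusted p = 1.17e-26) in H12, both by edgeR. ONECUT2 (ENSG00000119547, chromosome 18 from 57435685 to 57491297, plus strand) had 9.76 CPM in H33 and 11.7 CPM in H12, against 25.4 and 25.8 CPM in HepG2. This is 38.5% of the HepG2 level in H33 and 45.4% in H12. The log2 fold changes of ONECUT2 in the authors' deposited tables were -1.38 (SE 0.06, adjusted p = 1.76e-101) in H33 and -1.14 (SE 0.08, adjusted p = 5.05e-50) in H12, both by edgeR. A lower fold change than that of ONECUT2 was listed for 18.6% of all genes in H33 and 21.2% in H12, against 6.20% and 7.26% for ONECUT1.

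PROX1 (ENSG00000117707, chromosome 1 from 213983181 to 214041502, plus strand) was second to HNF4A in CPM in HepG2. Its implied level was 0.419 CPM in H33 and 2.57 CPM in H12, against 136 and 138 CPM in HepG2. The authors' deposited tables give -8.34 (SE 0.08, adjusted p listed as 0) in H33 and -5.75 (SE 1.12, adjusted p = 4.29e-07 by edgeR) in H12. PROX1 thus kept 0.308% of its HepG2 level in H33 and 1.86% in H12. The HepG2 levels implied by the 2 tables differed by at most 2.48% for the 8 factors.

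**Figure D2:**
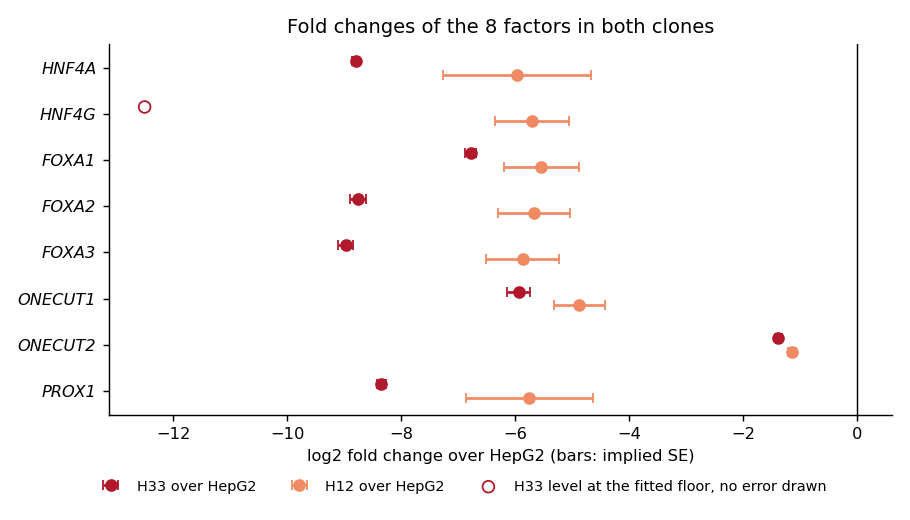
Log2 fold changes of the 8 factors, H33 over HepG2 and H12 over HepG2, with bars for the implied SE; the open circle marks HNF4G in H33, whose level is at the fitted floor, so that its place depends on the prior count. ONECUT2 stands at -1.38 and -1.14, and the other factors lie under -4 in both clones, with wider bars in H12 (up to 1.30) than in H33 (up to 0.21).

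Levels of different genes were compared per kilobase of annotated exon. On this scale HNF4A led in HepG2 with 47.6 CPM per kb, followed by FOXA3 (15.6), PROX1 (15.2), FOXA1 (12.6), FOXA2 (12.3), HNF4G (5.99), ONECUT1 (1.78) and ONECUT2 (1.56), all in CPM per kb. In H33 the order of levels began with ONECUT2 (0.601 CPM per kb), followed by FOXA1 (0.115) and HNF4A (0.107). ONECUT2 made up 62.6% of the summed level of the 8 genes in H33, 26.1% in H12 and 1.39% in HepG2. HNF4A made up 11.2% in H33, 27.9% in H12 and 42.3% in HepG2. In H12 HNF4A (0.768 CPM per kb) and ONECUT2 (0.720) led, and PROX1, FOXA1, FOXA3 and FOXA2 lay together between 0.247 and 0.287 CPM per kb. Other genes nearly absent from H33 had a median of 1.64% of their HepG2 level in H12, and HNF4A stood at 1.60%. The part of that shared value in the H12 order, shares and sum was not tested. Group levels carry no error, so whether neighbours in these orders differ could not be tested. The sum over the 8 genes was 0.960 CPM per kb in H33 and 2.75 in H12, against 113 in HepG2.

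H33 and H12 differed in 3 of the 8 factors, each lower in H33. The test takes the difference of the 2 deposited fold changes over its combined SE, adjusted by Benjamini-Hochberg over 14765 shared genes; in these 5.40% differed, and 3.89% were lower in H33. It is two-sided with a normal approximation. Both fold changes use the same HepG2 libraries, which makes the combined SE too wide. The implied SE of a gene with almost no reads can be too small. Levels of FOXA2, FOXA3 and HNF4G in H33 were 0.0740, 0.0679 and about 0.005 CPM, so the direction of the error in their SEs is not known. FOXA2 was lower in H33 than in H12 by a log2 difference of -3.08 (SE 0.65, adjusted p = 0.000132) and FOXA3 by -3.11 (SE 0.66, adjusted p = 0.000119), by this z test fitted over all shared genes. For HNF4G the adjusted p was 1.20e-20, with H33 at the floor; with a floor of 0.1 CPM the log2 difference was -2.47, and those of FOXA2 and FOXA3 were -2.65 and -2.55. HNF4A, with -2.83 (SE 1.31), and PROX1, with -2.60 (SE 1.12), had differences about as large as those of FOXA2 and FOXA3 but did not pass (adjusted p = 0.303 and 0.235 by the same z test over all shared genes). FOXA1 (-1.24, SE 0.66), ONECUT1 (-1.07, SE 0.50) and ONECUT2 (-0.24, SE 0.10) did not pass either.

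The values in H12 need to be read beside those of other genes nearly absent from H33. Leaving out the members, 159 genes had a fold change under -9 in H33 and at least 10 CPM in HepG2. In H12 these genes had a median log2 fold change of -5.93 (SD 0.20 over genes), or 1.64% of the HepG2 level, with 1.27% and 1.97% as the 5th and 95th percentiles. HNF4A, HNF4G, FOXA2, FOXA3 and PROX1 lay within these percentiles, between 1.60% and 1.97% in H12, and FOXA1 (2.15%), ONECUT1 (3.42%) and ONECUT2 (45.4%) above them. For the 7 factors other than ONECUT2 the share of the HepG2 level was higher in H12 than in H33 by 1.24 to 1.91 percentage points. Among the 8 factors, the implied SE in H12 was largest for HNF4A (1.30) and PROX1 (1.12), the 2 most abundant factors in HepG2, and 0.64 to 0.66 for HNF4G and the FOXA genes. The median SE of the other genes was 1.32 in H12 for those with 300 to 1000 CPM in HepG2 and 0.71 for those with 30 to 100 CPM. In H33 the same genes had median SEs of 0.07 and 0.13. Whether HepG2 RNA was present in any H12 library was not tested, since values per library were not used.

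**Figure D3:**
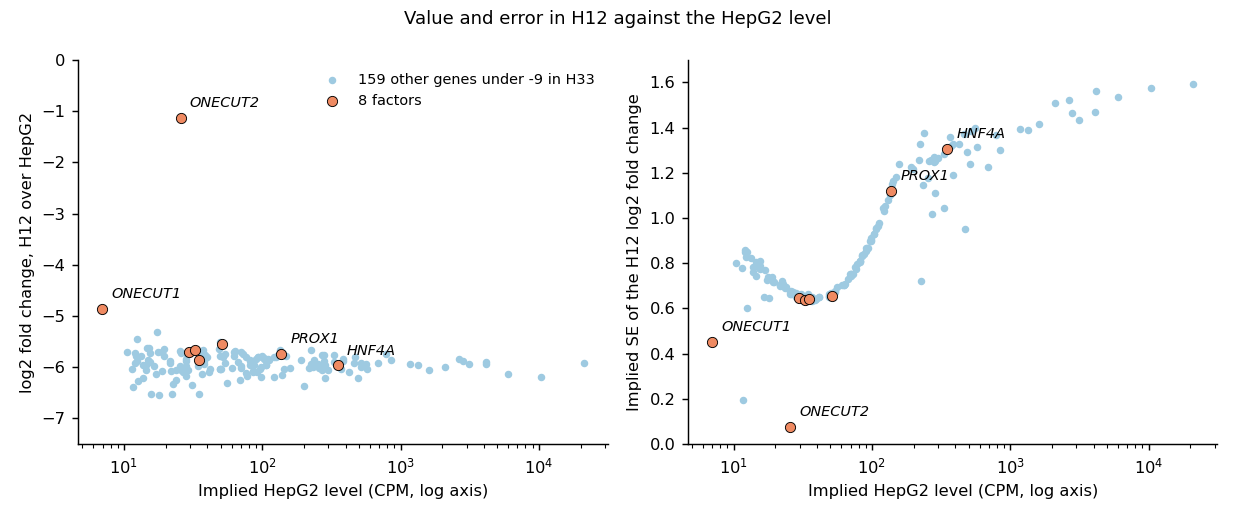
Log2 fold change of H12 over HepG2 (left) and its implied SE (right) against the implied HepG2 level (CPM, log axis) for the 8 factors (large points) and 159 other genes under -9 in H33 (small points). The other genes gather near -5.93 whatever their HepG2 level, HNF4A, HNF4G, FOXA2, FOXA3 and PROX1 lie among them, FOXA1 (-5.54) at their upper edge, and ONECUT1 (-4.87) and ONECUT2 (-1.14) above; the SEs of HNF4A (1.30) and PROX1 (1.12) lie within the band of the other genes.

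The partners of these factors did not all fall. Of 20 other liver transcription factors, 3 rose and 16 fell in H33, with the same numbers in H12 (medians -3.00 and -2.83). Lower genes in the authors' deposited tables included the bile acid receptor NR1H4 (-8.78 in H33 and -5.91 in H12) and the corepressor receptor NR0B2 (-8.41 and -5.83). GATA4 (-1.44 and -1.45), HHEX (-2.71 and -2.57), CEBPA (-3.08 and -3.09) and PPARA (-1.73 and -1.60) fell less in the authors' deposited tables. RXRA, a nuclear receptor that HNF4A does not pair with, stood at -0.26 and -0.35, past the threshold in both. The 3 genes that rose were ATF5 and the orphan receptors NR2F1 and NR2F2, which can bind the same DNA elements as HNF4A. NR2F1 had 149 CPM in H33 and 135 CPM in H12, against 15.5 CPM in HepG2 in each table, and log2 fold changes of 3.26 (SE 0.04) and 3.12 (SE 0.07) in the authors' deposited tables. NR2F2 had 167 CPM in H33 and 171 CPM in H12, against 15.7 CPM in HepG2, or 3.41 (SE 0.04) and 3.44 (SE 0.09) in the authors' deposited tables. Both exceeded HNF4A in CPM in both clones, whereas HNF4A exceeded both in HepG2.

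Known target genes of the factors were lower without exception among those measured. Of 24 HNF4A targets 22 were measured, and all 22 were lower in H33 and in H12 (medians -8.74 and -5.98; -8.10 in H33 with levels under 0.1 CPM set to 0.1 CPM). Of 12 FOXA targets 11 were measured and all 11 were lower in both clones (medians -7.90 and -5.94), and of 7 ONECUT and PROX1 targets 5 were measured and lower (medians -7.90 and -5.94). The lists share genes, and 8 of the 36 distinct targets are hepatocyte markers as well. Of the 36, 31 were measured. Over all listed genes 45.3% were lower in H33 and 44.3% in H12, and all 12 hepatocyte markers were lower in both clones. The lists were chosen with earlier results of these data known, and a link from factor to target was not tested. TTR, for thyroid hormone transport, which both HNF4A and the FOXA proteins bind, had 0.271 CPM in H33 and 0.930 CPM in H12, against 64.5 and 65.7 CPM in HepG2. F7, a clotting factor and HNF4A target, had 0.0112 CPM in H33 and 0.355 CPM in H12, against 23.0 and 23.6 CPM in HepG2. G6PC1, the last enzyme of glucose release and on all 3 lists, had 0.0304 CPM in H33 and 1.54 CPM in H12, against 96.6 and 98.1 CPM in HepG2. APOA2, an apolipoprotein gene on the HNF4A list, had 0.672 CPM in H33 and 32.9 CPM in H12, against 2080 and 2091 CPM in HepG2. AFP, the fetal counterpart of albumin and on the FOXA list, had 0.0372 CPM in H33 and 67.2 CPM in H12, against 4111 and 4133 CPM in HepG2. F7, G6PC1, APOA2 and AFP were among the largest falls of their lists in H33, whereas TTR lay at the H33 median of the FOXA list; CPS1 and CYP2D6 were chosen after their values were seen. The urea cycle gene CPS1, on the FOXA list, kept 28.6 CPM in H33 and 34.2 CPM in H12, against 53.5 and 54.0 CPM in HepG2. Its log2 fold changes of -0.90 and -0.66 in the authors' deposited tables were the smallest of that list in both clones. On the HNF4A list the smallest was that of CYP2D6 (-0.68 and -0.58 in the authors' deposited tables), which had under 1 CPM in each group. On the ONECUT and PROX1 list, CYP7A1, the rate-limiting enzyme of bile acid synthesis, which PROX1 is known to repress, had 0.0424 CPM in H33 and 0.254 CPM in H12, against 11.4 and 11.8 CPM in HepG2.

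**Figure D4:**
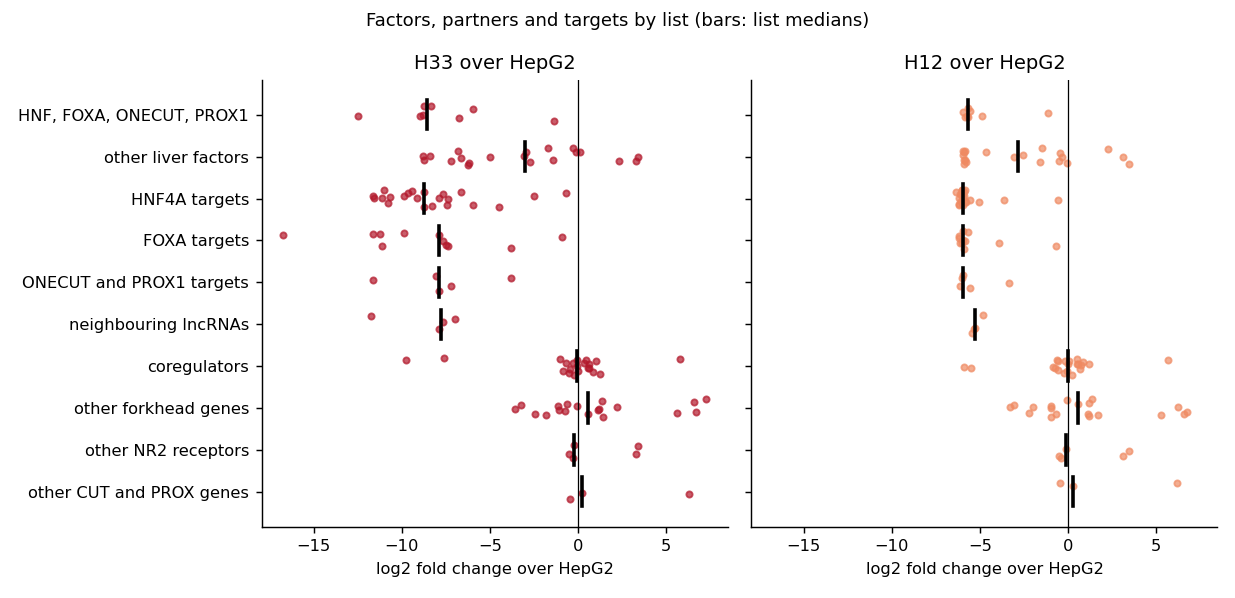
Log2 fold changes in H33 (left) and H12 (right) of the 8 factors, other liver factors, target genes, neighbouring long noncoding RNAs, coregulators and relatives; each point is a gene measured in both tables and bars are list medians. Factors and targets have medians under -5 in both clones, and the neighbouring RNAs medians of -7.78 and -5.30, or -4.97 and -4.99 with levels under 0.1 CPM set to 0.1 CPM, while coregulators (-0.04 and -0.01) and the families of relatives lie on both sides of 0.

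Coregulators that these factors work with split about as all listed genes did. In H33, 9 of 21 were higher and 9 lower; in H12, 9 were higher and 8 lower (medians -0.04 and -0.01). PPARGC1A, a coactivator of HNF4A in gluconeogenesis, had 0.0554 CPM in H33 and 1.09 CPM in H12, against 48.3 and 49.4 CPM in HepG2. Its relative PPARGC1B rose by 1.24 and 1.20 in the authors' deposited tables. Of the Groucho-type corepressors, which FOXA proteins can recruit, TLE2 had 5.54 CPM in H33 and 5.02 CPM in H12, against 0.0990 and 0.0974 CPM in HepG2, and TLE4 had 0.0178 and 0.0576 CPM, against 3.44 and 3.46 CPM. The acetyltransferase gene CREBBP (-0.04 and -0.01) and the remodeller gene SMARCA4 (0.01 and -0.05) did not pass in either of the authors' deposited tables, and were likewise chosen after their values were seen.

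Relatives within the same gene families moved in both directions. Among 42 other forkhead genes 19 were measured, 10 higher and 8 lower in each clone (medians 0.58 and 0.57). In the authors' deposited tables FOXO6 (7.28 in H33 and 6.73 in H12), FOXF1 (6.67 and 6.23), FOXL1 (6.57 and 6.57) and FOXD1 (5.61 and 5.30) rose. All 4 had under 0.2 CPM in HepG2, and FOXD1 reached 7.39 CPM in H33 and 5.91 CPM in H12. A gene silent in HepG2 may be listed only where it rose in a clone. FOXM1, a cell cycle regulator, rose by 1.20 and 1.21 in the authors' deposited tables, and FOXO1 (-3.27 and -3.08) and FOXQ1 (-3.58 and -3.28) fell. Among 7 other receptors of the NR2 family 5 were measured, with NR2F1 and NR2F2 higher and NR2C1, NR2C2 and NR2F6 lower, for example NR2F6 (-0.26 in H33 and -0.50 in H12, the authors' deposited tables). ONECUT3, CUX2 and PROX2 were not listed. Of the CUT-domain relatives, SATB1 had 24.1 CPM in H33 and 21.5 CPM in H12, against 0.303 and 0.299 CPM in HepG2, and CUX1 rose by 0.22 and 0.28 in the authors' deposited tables. Of 6 genes for repressors of epithelial programmes 3 were measured: SNAI1 (0.97 and 0.61) and ZEB1 (0.58 and 0.56) rose in the authors' deposited tables, and SNAI2 fell (-6.08 and -6.19). Among 14 regulators of other endodermal organs only the intestinal factor CDX2 was measured, with 2.77 CPM in H33 and 2.56 CPM in H12, against 0.0216 and 0.0215 CPM in HepG2.

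The neighbourhoods of the factors were examined for the direction of nearby genes. Within 500 kb of the 8 start sites 53 other genes were measured in both tables, counted once each, of which 19 were lower and 30 higher in H33. The FOXA3 locus alone held 25 of them, with 23 higher and 2 lower. Around HNF4A 6 of 11 were lower and 3 higher, and around ONECUT1 and ONECUT2 2 were lower and 2 higher each. No measured neighbour of HNF4G, FOXA1, FOXA2 or PROX1 was called higher in H33. Of all listed genes 45.3% were lower and 44.2% higher in H33. By at least 4 log2 units 5 of the 53 fell in H33 and 5 in H12, a share near the 8.85% and 8.82% of all listed genes. Of these, 3 are RNAs beside a factor: HNF4A-AS1, PROX1-AS1 and LINC00261. HNF4A-AS1 overlaps HNF4A on the opposite strand and stood at -7.91 (SE 0.40) in H33 and -5.45 (SE 0.34) in H12 in the authors' deposited tables. PROX1-AS1, which starts 5.33 kb downstream of the PROX1 start and overlaps PROX1 on the opposite strand, had -7.65 (SE 0.30) and -5.28 (SE 0.23) in the authors' deposited tables. LINC00261, a noncoding RNA whose start lies 6.81 kb downstream of that of FOXA2 on the same strand, was at the floor in H33 and at 0.437 CPM in H12, against 16.9 and 17.5 CPM in HepG2. All 4 noncoding RNAs of the list were lower in both clones. TTC6, which starts 0.212 kb from FOXA1 on the opposite strand and overlaps it, had -7.62 and -6.02 in the authors' deposited tables. The use of strand in counting is not given in the sources used here, so reads of HNF4A-AS1, PROX1-AS1 and TTC6 cannot be told apart from those of the genes they overlap. The last of the 5 was MYO5C, 495 kb from ONECUT1. TTC6 and MYO5C were picked out by these values.

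Measured protein-coding neighbours moved in both directions. In the authors' deposited tables NOVA2, within 500 kb of FOXA3, stood at 8.74 in H33 and 8.34 in H12, RIMS4 near HNF4A at 6.54 and 6.37, GIPR near FOXA3 at 6.08 and 5.72, and JPH2 near HNF4A at 4.24 and 4.68. TOX2 near HNF4A had 1.58 CPM in H33 and 2.02 CPM in H12, and was at the fitted floor in HepG2. These 5 were picked out by their values. The nearest on either side of HNF4A, chosen by position, were FITM2 (-0.69 in H33 and -0.67 in H12) and TTPAL (-0.15 and -0.12) in the authors' deposited tables. Of 25 measured neighbours of FOXA3, 23 were higher and 2 lower in H33. SYMPK, whose start lies -0.699 kb from that of FOXA3 (upstream negative) on the opposite strand, had 140 CPM in H33 and 130 CPM in H12, against 74.0 CPM in HepG2 in the H33 table. Its log2 fold changes were 0.92 and 0.81 in the authors' deposited tables, while FOXA3 beside it stood at -8.97 and -5.86. SMYD2, the nearest measured coding gene to PROX1, had -2.32 and -2.35, FAM214A near ONECUT1 had 0.25 and 0.22, and FECH near ONECUT2 had 0.28 and 0.32, in the authors' deposited tables. HNF4G had 1 measured neighbour, the noncoding RNA CASC9 (-3.16 and -3.54 in the authors' deposited tables).

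**Figure D5:**
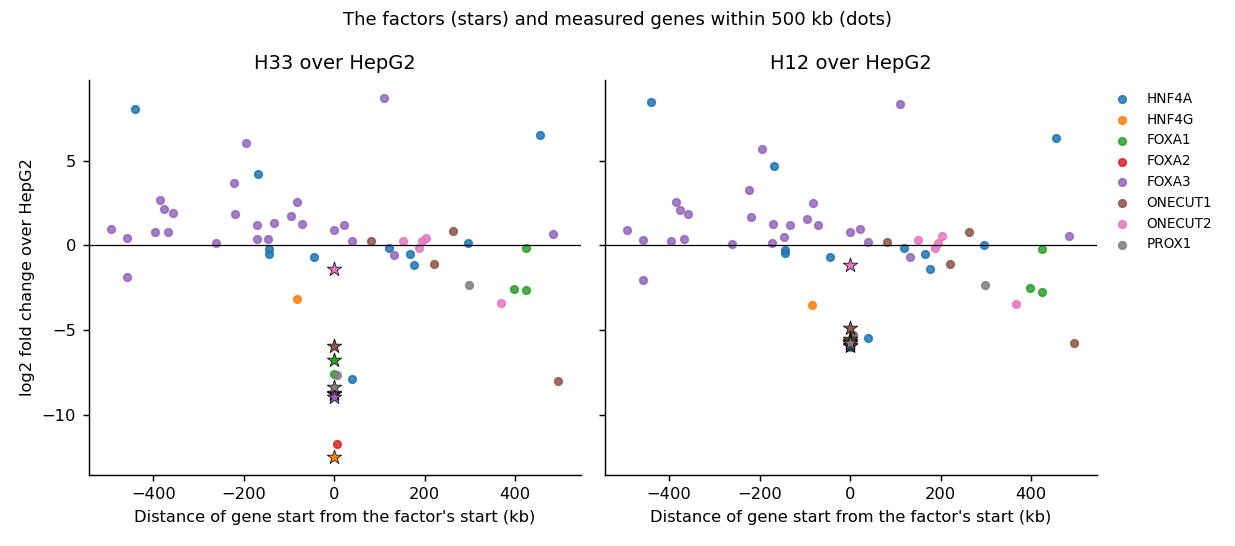
Log2 fold change over HepG2 in H33 (left) and H12 (right) against the distance of a gene's start from that of the factor (kb, downstream positive), with stars for the 8 factors and dots for measured genes within 500 kb, coloured by factor. Dots under -4 lie at or near 0 kb, apart from HNF4A-AS1 at 40.0 kb and MYO5C at 495 kb, and the dots around FOXA3 lie mostly above 0.

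Genes most like HNF4A and PROX1 were ranked by the distance of their pair of fold changes, over 7657 genes called in both clones with at least 10 CPM in HepG2. The measure rests on 3 group levels with a shared HepG2 group and is a description. HNF4A (-5.96, SE 1.30) and PROX1 (-5.75, SE 1.12) in H12 lay near the median of -5.93 of other genes nearly absent from H33. Among genes with such falls the H12 value separates little, so the ranking rests mostly on H33. Among the nearest to HNF4A were ACSS3 (distance 0.0302 log2 units), the transferrin receptor gene TFR2 (0.0540), NR1H4 (0.0547) and the complement protease gene MASP1 (0.0658). Nearest to PROX1 were the fibrinogen gene FGA (distance 0.0480 log2 units), the erythropoietin gene EPO (0.0577), CNN3 (0.0629), HOOK1 (0.0665) and GDF7 (0.0778).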

How the data were processed

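Each group holds 6 libraries, assigned by the cell line label. The submitters' processing notes list the build GRCh38.p10 with edgeR 3.28.0, RSEM, STAR 2.5.3a and bcl2fastq 2.20.0.422, without role or order; settings for filtering, scaling, dispersion and strand are not given there. Per the file headers, the authors deposited per gene a log2 fold change (clone against HepG2), a mean log2 CPM, a likelihood ratio (a score of a generalized linear model), and a p-value with its adjusted value. The SE was taken as the absolute fold change over the root of the likelihood ratio, and group levels were solved from fold change and mean CPM, taking the groups as equal in size. Levels under 0.0078125 CPM were taken as at the fitted floor. Calls used the authors' adjusted p at 0.05. The difference test was run on simulated fold changes drawn with the same SEs that it then used. Whether the implied SEs hold near the fitted floor was thus not checked. Tests per library, planned for the case of counts, were not possible, and library depth is unknown.

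The factors and gene lists were chosen with earlier results of these data known. Named genes are the factors, up to 4 genes with the largest change in H33 in each list together with relatives, partners and neighbouring transcripts on it, and the 5 genes nearest in pattern to HNF4A and to PROX1; neighbours were taken by position within 500 kb, a rule added later. Some genes that these rules name are not reported here. Coordinates, biotypes and exon lengths come from GENCODE 29 (GRCh38). Python 3.11.15, numpy 2.4.6, pandas 2.3.3, scipy 1.17.1 and matplotlib 3.10.9 were used.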

Additional observations from a re-analysis of the deposited data

Results flagged for a closer look

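In all, 3 factors differed between the clones under the same contrast with HepG2, by the z test over all shared genes; values are H33 minus H12 log2 differences. FOXA2 stood at -3.08 (adjusted p = 0.000132) and FOXA3 at -3.11 (adjusted p = 0.000119), both lower in H33. HNF4G stood at -6.80 (adjusted p = 1.20e-20), a value that depends on the prior count because H33 was at the fitted floor. Their implied levels were 0.0740, 0.0679 and 0.005 CPM in H33, against 0.643, 0.600 and 0.568 CPM in H12, for FOXA2, FOXA3 and HNF4G in that order. In H12 all of them lay within the band of genes nearly absent from H33, at 1.72% to 1.97% of the HepG2 level. The part of that shared value in the difference was not tested.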

How the results depend on the processing

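The counts of called factors, 8 in H33, 8 in H12 and 3 between the clones, stayed at those numbers under an adjusted p of 0.01, a minimum change of 1 log2 unit, a minimum of 1 log2 CPM and centring on the median gene; Bonferroni adjustment gave 8, 7 and 3, without HNF4A in H12. Between the clones, FOXA2, FOXA3 and HNF4G were the genes called at 0.01, with Bonferroni adjustment, with the CPM minimum and after centring. Centring could not change the counts against HepG2, since it kept the authors' adjusted p and moved values only by medians of -0.02 and -0.03. The CPM minimum removed no factor, the lowest mean being 1.80 log2 CPM for ONECUT1 in the H33 comparison. The z test was not rerun with levels under 0.1 CPM set to 0.1 CPM. Setting levels under 0.1 CPM to 0.1 CPM moved 3 of the 16 fold changes by more than 1 SE, those of FOXA2, FOXA3 and HNF4G (-8.17) in H33, and 1 of the 8 differences, that of HNF4G. With the same floor 8 list medians moved by more than the median SE of their list, and 26 did not. Among those that moved were the H33 medians of the noncoding RNA list, to -4.97, and of ONECUT and PROX1 targets, to -6.84. The H12 median of the noncoding RNA list became -4.99, a change within that limit. Counting 250 bases before the start only, the motif shares were 15.5% for TGTTTNC and 21.2% for TGACG. No paired analysis was possible because the tables hold no values per library; for the same reason no library could be left out.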

Other observations

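For 2 list genes, picked out here after their values were seen, the clones differed in opposite directions. NR5A2, an orphan receptor that PROX1 represses, had 0.906 CPM in H33 and 4.89 CPM in H12, against 6.90 and 7.10 CPM in HepG2. Its log2 difference between H33 and H12 was -2.39 (SE 0.16, adjusted p = 1.49e-46 by the z test over all shared genes). The apolipoprotein gene APOA4, on the HNF4A target list, had 0.630 CPM in H33 and 0.0637 CPM in H12, against 3.56 and 3.55 CPM in HepG2 (log2 difference 3.30, SE 0.33, adjusted p = 2.36e-20 by the same z test). APOA4 in H12 was thus at 1.80% of the HepG2 level, near the value shared by genes that H33 lacks.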
